A study of Aloe vera with 7 samples.

Results

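The mitochondrial genome of plants codes for core subunits of the respiratory chain, and its transcripts were read here in root and leaf of Aloe vera, a succulent monocot. The RNA was hybridised to the Affymetrix ATH1 array, a design for Arabidopsis thaliana, so a value is the binding of Aloe RNA to Arabidopsis probes and the gene names are Arabidopsis names. Members were the probe sets in the array's block for the mitochondrial genome, taken by their consecutive probe numbers, and any other probe set with a single gene whose symbol starts with nad, cox or ccb and a digit. The block covers 31 numbers, of which 27 are in the table, and the symbols added 14 probe sets, which gave 41 members of 18810 probe sets tested. Of these, 21 carry 1 of 16 mitochondrial gene names, 3 carry only a locus name of Arabidopsis chromosome 2, and 17 have no single gene listed and are given by probe set ID.

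The groups were 3 arrays of root RNA and 3 arrays of leaf RNA, numbered 1 to 3 in each tissue. The labels describe 1 mature Aloe plant from a garden centre, grown in a laboratory at room temperature, without genotype, age or treatment, and do not say whether replicates came from separate plants. The p-values therefore rest on the spread between arrays alone, and that spread may be technical. A further array of genomic DNA holds 0 values in the table and was not used. Each value is on the log2 scale, relative to the median of its own probe set over the 6 RNA arrays, so it gives differences between arrays and no signal level, and levels of different genes cannot be compared. In bulk tissue, fewer mitochondria or fewer cells of a type and less RNA in each cannot be told apart.

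In plant mitochondria, electrons from NADH enter at complex I, pass through complex III and cytochrome c, and reach oxygen at complex IV. The nad genes encode complex I subunits and the cox genes complex IV subunits. The ccb genes encode parts of the machinery that attaches haem to cytochrome c, a bacterial type of maturation system kept in plant mitochondria. The gene matR encodes a maturase for splicing that lies within an intron of nad1, and orfX encodes a membrane protein of the twin-arginine transport type. In Arabidopsis, nad1, nad2 and nad5 are encoded in separate pieces whose transcripts are joined by trans-splicing. Chromosome 2 of Arabidopsis carries a large insertion of mitochondrial DNA, and probe sets whose ID ends in _s_at, 11 of the 41 members, share probes with another sequence. Reading frames without a gene name are poorly conserved between plant mitochondrial genomes. The labelling kit starts from poly(A) tails, which on plant mitochondrial RNAs are short-lived and mark decay.

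Among the members 2 arrays stood apart. The members' median log2 value was -0.010, 0.017 and 0.26 on root replicates 1 to 3, against -0.034, -0.25 and 0.059 on leaf replicates 1 to 3. The median over all probe sets lay between -0.014 and 0.017 on the 6 arrays. Root replicate 3 was the highest array for 14 members (34.1%), against 17.8% of all probe sets, and leaf replicate 2 was the lowest array for 21 members (51.2%), against 17.4% of all probe sets. The 25S ribosomal RNA control had values of -0.90, 1.01 and 1.08 log2 on root replicates 1 to 3 and of -0.55, -4.72 and 0.55 log2 on leaf replicates 1 to 3. Averaged over 9 probe sets, the spiked-in hybridisation controls stood at -0.44, -0.53 and 0.53 log2 on root replicates 1 to 3 and at -0.18, 0.27 and 0.27 log2 on leaf replicates 1 to 3. Averaged over 12 probe sets, the spiked-in poly(A) controls stood at -1.22, -0.17 and 0.73 log2 on root replicates 1 to 3 and at 0.034, -0.23 and 1.06 log2 on leaf replicates 1 to 3. Root replicate 3 was the highest array for the hybridisation controls and leaf replicate 2 the lowest for 25S ribosomal RNA, and the part of either in the members' values was not tested. As a check of the tissue labels, 15 of 16 chloroplast-encoded photosystem probe sets had a lower mean in root, 5 of them past the test. Their mean was -1.08, -0.77 and -0.58 log2 on root replicates 1 to 3, and 1.42, 0.44 and 1.46 log2 on leaf replicates 1 to 3. The 3 nuclear light-harvesting genes had a lower mean in root and the 2 root hair expansin genes a slightly higher one, with 0 of these 5 past the test. The expansin genes EXPA7 and EXPA18 did not separate the tissues. They differed by 0.084 ± 0.28 and 0.082 ± 0.24 log2, and leaf replicate 3 was the highest array for both.

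**Figure D1:**
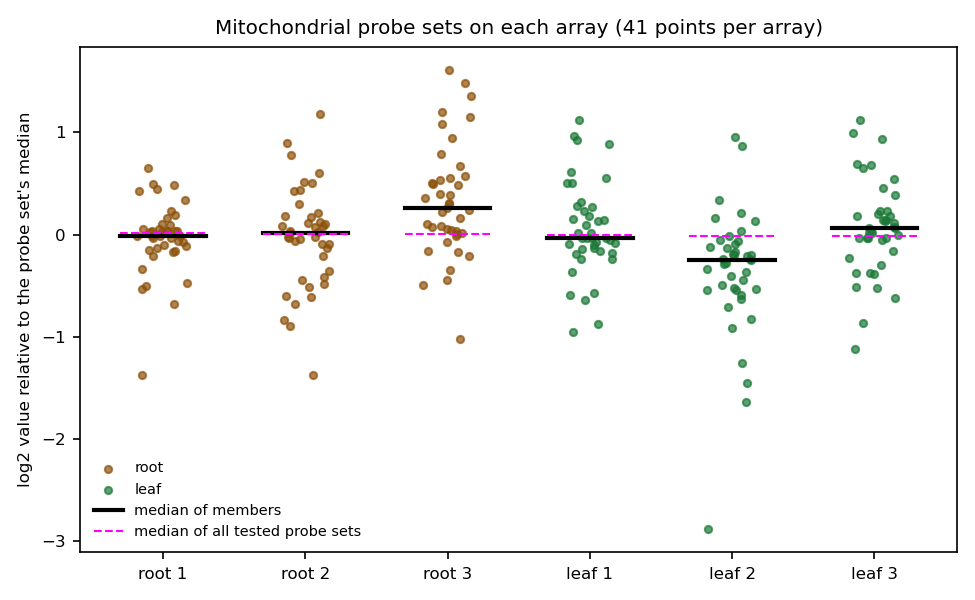
Each point is 1 of the 41 mitochondrial probe sets on 1 array, with its log2 value relative to its own median over the 6 arrays on the vertical axis and root arrays left of leaf arrays. The members' median (black bar) lies at 0.26 log2 on root replicate 3 and at -0.25 log2 on leaf replicate 2, while the median of all 18810 probe sets (dashed) lies near 0 on every array; points are spread sideways for visibility.

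The comparison of root with leaf asked which mitochondrial transcripts differed in array signal between the tissues. Calls were made in limma where the p adjusted by Benjamini-Hochberg over all probe sets was under 0.05. None of the 41 members was called, with 0 higher in root and 0 higher in leaf; over all probe sets 0.0638% were called higher in root and 0.276% higher in leaf. At an unadjusted p under 0.05 there were 5 of the 41 members on the root side and 1 of the 41 on the leaf side. All probe sets gave 4.68% (880 of 18810) and 4.88% (918 of 18810). In 7 members (17.1%) every root value lay above every leaf value, against 8.27% of all probe sets, and in 0 members did every root value lie below every leaf value, against 6.87% of all probe sets. The 7 comprised 2 of the 4 cytochrome c maturation members, ccb206 and ccb382, and 2 of the 5 nad1 members. The other 3 were probe sets without a gene name.

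The members' median root minus leaf difference was 0.065 log2, where the median of all probe sets was 0.034 log2, and 26 members had a higher mean in root, 63.4% against 54.5% of all probe sets. The members' median moved with single arrays in both directions. Without root replicates 1 to 3 in turn it was 0.11, 0.18 and 0.0061 log2, and without leaf replicates 1 to 3 in turn it was 0.20, -0.030 and 0.26 log2, while that of all probe sets stayed between 0.024 and 0.045 log2. Members also varied more within a tissue: the median residual SD was 0.45 log2 over the members and 0.32 log2 over all probe sets. The 95% intervals of the members' differences reached a median of 0.74 log2 to either side. For 18 of the 41 members the interval lay within 2-fold either way, and for the other 23 a difference of 2-fold or more in at least one direction was within the interval.

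**Figure D2:**
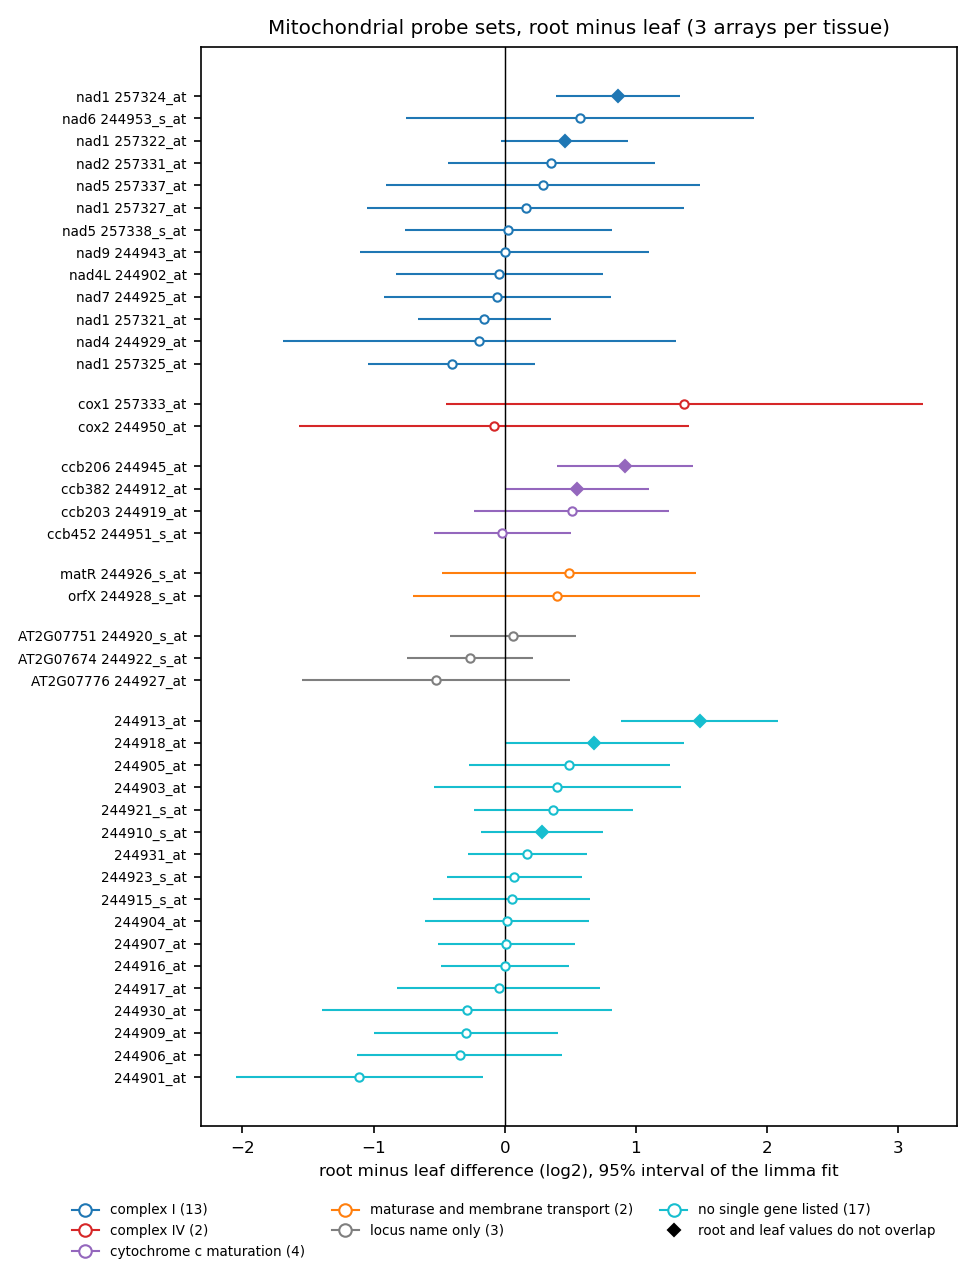
Root minus leaf differences (log2, horizontal axis) of the 41 members with 95% intervals from limma, 3 arrays per tissue, grouped by role from top to bottom. Filled diamonds mark the 7 members whose root and leaf values do not overlap, all on the root side; open circles mark the other 34, and the longest interval is that of cox1.

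Cytochrome c maturation was the class with the highest median among those with more than 2 members, at 0.53 log2 over 4 probe sets. In Arabidopsis, ccb206 encodes CcmB, a membrane part of an ABC transporter, ccb382 and ccb203 encode the separate parts of CcmFN, and ccb452 encodes CcmFC; the CcmF proteins belong to the haem lyase. On root replicates 1 to 3, ccb206 stood at 0.42, 0.50 and 0.24 log2, against -0.24, -0.83 and -0.52 log2 on leaf replicates 1 to 3. All root arrays lay above all leaf arrays, and the difference was 0.92 ± 0.22 log2 (SE, n = 3 arrays per tissue), 1.89-fold, with an adjusted p of 0.202 in limma. The values of ccb382 were 0.050, 0.52 and 0.082 log2 in root, against -0.57, -0.050 and -0.38 log2 in leaf. These did not overlap either, although root replicate 1 and leaf replicate 2 lay 0.10 log2 apart, and the difference was 0.55 ± 0.24 log2 with an adjusted p of 0.521. For ccb203 the root values were -0.11, 0.11 and 0.51 log2 and the leaf values -0.96, -0.21 and 0.15 log2. Leaf replicate 3 lay inside the root range, and the difference was 0.51 ± 0.32 log2 (adjusted p = 0.710). The fourth gene, ccb452, stood at -0.13, -0.094 and 0.40 log2 in root and at 0.088, -0.088 and 0.23 log2 in leaf. Its tissues overlapped, with a difference of -0.018 ± 0.23 log2, and its probe set shares probes with another sequence. Without root replicates 1 to 3 in turn the class median was 0.64, 0.47 and 0.48 log2, and without leaf replicates 1 to 3 in turn it was 0.32, 0.63 and 0.64 log2, so leaf replicate 1 moved it most.

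**Figure D3:**
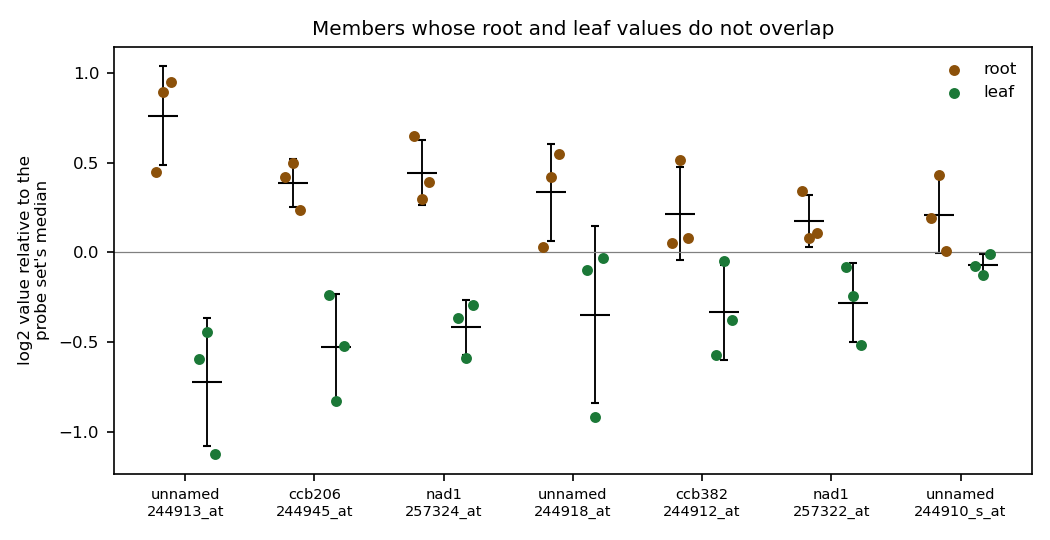
Values of the 7 members whose tissues do not overlap, on each of 3 root arrays (brown, left) and 3 leaf arrays (green, right), as log2 relative to the probe set's own median; bars are the mean ± SD. The differences of these members, chosen for their separation, run from 1.49 log2 at 244913_at to 0.28 log2 at 244910_s_at, where the closest root and leaf arrays nearly touch.

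Complex I was read by 13 probe sets of 8 genes, whose median difference was 0.027 log2, 7 on the root side and 6 on the leaf side. The nad1 subunit, which lies in the membrane arm where quinone is bound, was covered by 5 members that did not move together. A further 2 probe sets list nad1 among several genes and fell outside the members. At 257324_at the root values were 0.65, 0.30 and 0.39 log2, against -0.37, -0.59 and -0.30 log2 in leaf. The tissues did not overlap, and the difference of 0.86 ± 0.20 log2 (1.82-fold, adjusted p = 0.192) had the lowest adjusted p among members with a gene name. At 257322_at the root values were 0.34, 0.079 and 0.11 log2, against -0.079, -0.24 and -0.52 log2 in leaf. This second probe set also separated the tissues, by 0.46 ± 0.21 log2 (adjusted p = 0.570). The other 3 did not: 257325_at differed by -0.41 ± 0.27 log2, 257321_at by -0.16 ± 0.22 log2 and 257327_at by 0.16 ± 0.52 log2. At 257325_at root replicate 2 was low at -0.83 log2 and root was below leaf in all 3 same-numbered pairs, the opposite side to 257324_at. At 257327_at leaf replicates 1 and 2 stood at 0.89 and -1.46 log2, further apart than the means of the tissues. The files do not say which part of nad1 each probe set reads, and whether the probe sets differ from each other was not tested.

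The remaining complex I genes overlapped between the tissues. For nad4, a membrane subunit of the proton-pumping arm, the root values were -0.077, -0.90 and 0.077 log2 and the leaf values 1.12, -1.64 and 0.20 log2. Both extremes were leaf arrays, and the difference was -0.19 ± 0.65 log2. The probe set of nad6, another membrane subunit, shares probes with another sequence. Its root values were -0.54, 1.18 and 0.54 log2 and its leaf values -0.87, 0.96 and -0.62 log2. Root was higher in all 3 same-numbered pairs, by 0.34, 0.23 and 1.15 log2, with both arrays numbered 2 high; the difference was 0.57 ± 0.57 log2 (adjusted p = 0.833). The 2 probe sets of nad5, a membrane subunit, were both highest on root replicate 3, at 1.48 log2 for 257337_at and 0.67 log2 for 257338_s_at, and lowest on root replicate 2, at -0.60 and -0.68 log2. Their differences were 0.29 log2 for 257337_at and 0.027 log2 for 257338_s_at, inside the spread of the root arrays alone. The subunits nad7 and nad9 of the peripheral arm differed by -0.055 ± 0.37 and -0.0017 ± 0.48 log2. The membrane subunits nad2 and nad4L differed by 0.35 ± 0.34 and -0.042 ± 0.34 log2. Leaf replicate 2 was the lowest array for 7 of the 13 complex I probe sets, and the sign of the class median turned with the array left out. It was 0.059, 0.12 and -0.057 log2 without root replicates 1 to 3 in turn, and 0.39, -0.15 and 0.24 log2 without leaf replicates 1 to 3 in turn.

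Complex IV was read by cox1, the catalytic subunit that binds oxygen, and cox2, which takes electrons from cytochrome c. Their residual SD, with a median of 1.18 log2 over the 2, was the highest class median. On root replicates 1 to 3, cox1 stood at 0.48, -0.41 and 1.15 log2, against -0.13, -2.89 and 0.13 log2 on leaf replicates 1 to 3. Leaf replicate 2 lay far below the other 5 arrays, and root replicate 2 lay below 2 of the leaf arrays. The difference was 1.37 ± 0.78 log2 (adjusted p = 0.671), and it was lowest with leaf replicate 2 left out, at 0.41 log2, and highest with leaf replicate 3 left out, at 1.91 log2. For cox2 the root values were -0.68, -0.61 and 1.09 log2 and the leaf values 0.61, -1.26 and 0.69 log2. The tissues overlapped, since root replicates 1 and 2 lay below leaf replicates 1 and 3. Root replicate 3 was the highest array and leaf replicate 2 the lowest, and the difference was -0.083 ± 0.64 log2. The genes cox1 and cox2 thus shared their highest and their lowest array, while their tissue differences had opposite signs. No member with a gene name belongs to complex III or the ATP synthase.

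The maturase gene matR stood at -0.48, 0.21 and 1.20 log2 in root and at -0.19, -0.54 and 0.19 log2 in leaf. The transport gene orfX stood at -0.037, -0.13 and 1.61 log2 in root and at 0.51, -0.29 and 0.037 log2 in leaf. In both genes root replicate 3 was the highest array and leaf replicate 2 the lowest, and the tissues overlapped. The differences were 0.49 ± 0.42 log2 for matR and 0.40 ± 0.47 log2 for orfX (adjusted p = 0.794 and 0.870). The probe sets of both genes share probes with another sequence. The median of the 2 genes was lowest with root replicate 3 left out, at -0.062 log2, and highest with root replicate 1 left out, at 0.77 log2.

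**Figure D4:**
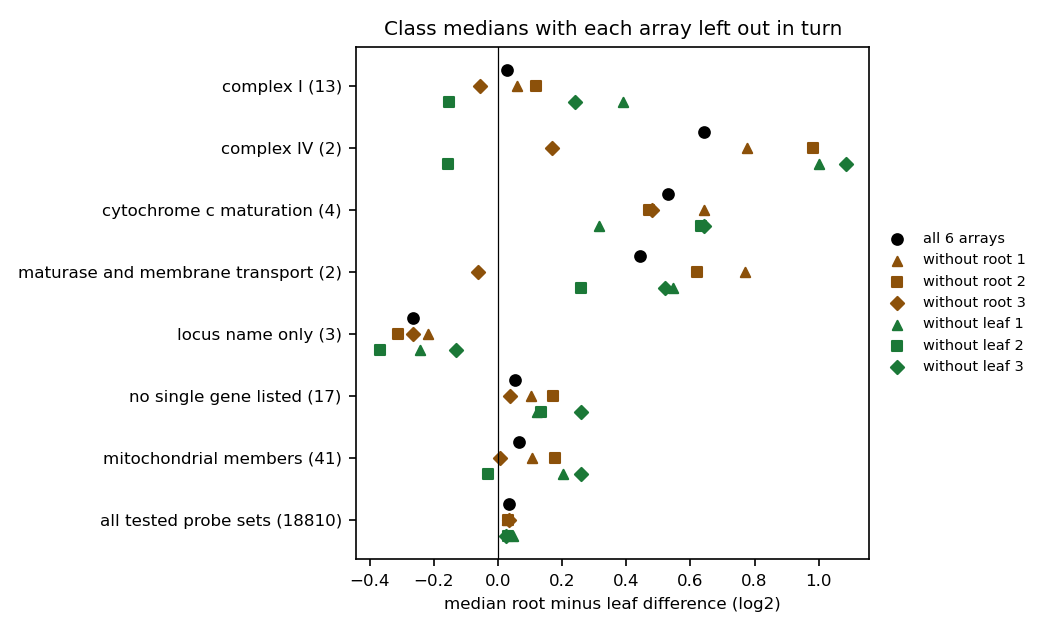
Median root minus leaf difference (log2, horizontal axis) of each class of members, of all 41 and of all 18810 probe sets, with all 6 arrays (black) and with each root array (brown) or leaf array (green) left out in turn; the number of probe sets stands in brackets. Cytochrome c maturation ranges from 0.32 to 0.64 log2 with 1 array left out, complex I from -0.15 to 0.39 log2 and complex IV from -0.16 to 1.09 log2.

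Among the 17 probe sets with no single gene listed, 12 had a higher mean in root and 5 in leaf, with a median of 0.053 log2. The member with the largest difference of all 41, 244913_at, was one of them. Its values were 0.45, 0.89 and 0.95 log2 on root replicates 1 to 3, against -0.59, -0.45 and -1.13 log2 on leaf replicates 1 to 3. The tissues were well apart, and the difference was 1.49 ± 0.26 log2, 2.80-fold, with an adjusted p of 0.0864, which did not pass. With a variance trend and robust fitting in limma its adjusted p was 0.00960, in a range of 0.00960 to 0.241 over 12 alternatives, and this was the only alternative that called a member. Next on the root side, 244918_at stood at 0.032, 0.42 and 0.55 log2 in root and at -0.096, -0.92 and -0.032 log2 in leaf. Its closest root and leaf arrays lay near 0, and the difference was 0.68 ± 0.29 log2 (adjusted p = 0.522). Another, 244910_s_at, stood at 0.19, 0.43 and 0.0088 log2 in root and at -0.076, -0.13 and -0.0088 log2 in leaf. It separated the tissues by a small margin, with a difference of 0.28 ± 0.20 log2 (adjusted p = 0.752).

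On the leaf side, the lowest-numbered probe set of the block, which has no gene listed, stood at -1.38, -1.37 and 0.054 log2 in root, against 0.55, 0.13 and -0.054 log2 in leaf. Root replicates 1 and 2 lay far below every leaf array while root replicate 3 lay among them, and the difference was -1.11 ± 0.41 log2 (2.16-fold higher in leaf, adjusted p = 0.433). It was the only member on the leaf side at an unadjusted p under 0.05. The other 13 probe sets without a single gene had differences between -0.34 log2 at 244906_at and 0.49 log2 at 244905_at, with adjusted p-values of 0.734 or more. Of the 3 members with a chromosome 2 locus name, AT2G07776 differed by -0.53 ± 0.44 log2, AT2G07674 by -0.27 ± 0.21 log2 and AT2G07751 by 0.065 ± 0.21 log2. Their adjusted p-values were 0.786, 0.774 and 0.961. The probe sets of AT2G07674 and AT2G07751 share probes with another sequence. For AT2G07776 the root values were 0.49, -0.51 and -0.49 log2 and the leaf values 0.93, -0.54 and 0.68 log2. Its lowest array was leaf replicate 2, within 0.05 log2 of root replicates 2 and 3.

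Most respiratory subunits are encoded in the nucleus, and a list of 71 nuclear genes of the respiratory chain, its assembly and mitochondrial gene expression was set beside the members. By symbol or locus, 30 genes matched, on 31 single-gene probe sets. None passed the test, 0 in root and 0 in leaf, against 0.0638% and 0.276% of all probe sets. At an unadjusted p under 0.05 in limma there were 2 of the 31 in root and 1 of the 31 in leaf, where all probe sets gave 4.68% and 4.88%. Of the 31, 22 (71.0%) had a higher mean in root, against 54.5% of all probe sets, and 9 in leaf. Their median was 0.12 log2, against 0.034 log2 over all probe sets. The largest difference was that of AT3G27240, a cytochrome c1 gene of complex III, at 1.11 ± 0.30 log2 (adjusted p = 0.259). The iron-sulphur subunit of complex II, SDH2-1, differed by -0.97 ± 0.28 log2 on 257713_at (adjusted p = 0.299) and by 0.46 ± 0.26 log2 on 257742_at, so its probe sets had opposite signs. The alternative NADH dehydrogenase NDB3 differed by 0.74 ± 0.32 log2 and OTP43, needed in Arabidopsis for trans-splicing of nad1, by 0.64 ± 0.31 log2 (adjusted p = 0.515 and 0.591). In this list root replicate 3 was the highest array for 22.6% and leaf replicate 2 the lowest for 19.4% of the probe sets. Over all probe sets these shares were 17.8% and 17.4%. Leaf replicate 3 was the lowest array for 32.3% of the list, against 19.1% of all probe sets, and its part in the list's differences was not tested.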

How the data were processed

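The deposited log2 values came from RMA (background correction, quantile normalization and a summary per probe set), per the submitters' processing notes; version, log base and any probe set filter are not given in the sources used here. The median of every probe set over the 6 RNA arrays was 0 within 5e-07, as seen from the values, so each had been centred. Per the labels, a 3' IVT kit labelled 250 ng of total RNA for each array. After 64 control probe sets were left out, 18810 remained, of which 11100 carry 1 gene, 350 several and 7360 none in the platform's annotation. On all of them limma 3.58.1 (R 4.3.3; lmFit, eBayes, no covariate) fitted the root minus leaf difference, and p-values were adjusted by Benjamini-Hochberg. The fit was tested on simulated data with independent noise for each probe set and array. Those data hold no shift of an array shared by many probe sets, so the test does not cover such shifts. Summaries used Python 3.11.15, pandas 2.3.3 and NumPy 2.4.6. With 6 arrays, their number limits the precision, and no dim probe sets could be filtered without levels.

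Members and gene lists were chosen with earlier results of these data known. Values on every array are given for members with an unadjusted p under 0.05, with no overlap between tissues or with the largest difference in their class, and for the 4 nuclear genes with the largest differences the difference alone; values of further members were picked after they were seen. Root and leaf arrays of the same number deviated together from their tissue means (Pearson correlations across probe sets of 0.12, 0.37 and 0.25). Arrays of different numbers gave correlations from -0.29 to 0.064, so the pairing was least marked for number 1. Same-numbered arrays were therefore read as pairs and a replicate block was fitted as an alternative, though the labels do not say what the numbers mark. The main fit, with its standard errors, intervals and p-values, did not use the pairing. Alternatives were the replicate block, quantile normalization, array centring, a variance trend with robust fitting, array weights, removal of shared-sequence probe sets, and each array left out.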

Additional observations from a re-analysis of the deposited data

How the results depend on the processing

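The count of 0 members called in either direction was the same in limma under the replicate block, quantile normalization, array centring, array weights, removal of shared-sequence probe sets and each array left out, and rose to 1 in root with a variance trend and robust fitting. That fit also called 40 probe sets of the whole table in root and 115 in leaf, against 12 and 52 in the fit without them; the cause was not tested. With 1 array left out, on fewer samples, the whole table gave 0 to 5 calls in root and 7 to 28 in leaf. Under the replicate block the whole table gave 9 in root and 53 in leaf, the members' median stayed at 0.065 log2, and the block changed no member's call. The adjusted p in limma was then 0.226 for cox1 and 0.103 for 244913_at, against 0.671 and 0.0864 without the block. Leaving out 1 array put the members' median between -0.030 log2, where leaf replicate 2 was dropped, and 0.26 log2, where leaf replicate 3 was. Over members chosen after seeing the data it was 0.29 log2 for the 21 with a mitochondrial gene name, and it was -0.14 log2 without root replicate 3 and leaf replicate 2 together, a pair picked for its high and low values, so that its removal lowers the difference by construction. The 5 members on the root side at an unadjusted p under 0.05 became 3 after quantile normalization or array centring and 6 under the block. Of the 11 members followed through the other fits and the single arrays left out, 0 changed sign. They had been picked from these data for a low p, no overlap or the largest difference in their class, which favours a stable sign. For the 7 of the 11 with no overlap between tissues, leaving out 1 array could not change the sign. Members not followed could change, as orfX was at -0.17 log2 without root replicate 3. Over all 41 members, 26 had a higher mean in root with all arrays. That count was 20 without leaf replicate 2 and 31 without root replicate 2. The replicate block, the variance trend and removal of shared-sequence probe sets leave a member's difference as it is. Without root replicate 3 and leaf replicate 2 together, matR was at -0.13 log2. Signal over background is not known for any member.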

Other observations

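A further 11 probe sets list a mitochondrial gene together with a locus on Arabidopsis chromosome 2, and so fall outside the members and are not named. Chosen after the annotation was seen, they had root minus leaf differences from -0.29 to 0.74 log2 with a median of 0.19 log2, 7 on the root side and 4 on the leaf side, and 0 were called in limma or had an unadjusted p under 0.05. Root replicate 3 was the highest array for 5 of them and leaf replicate 2 the lowest for 8.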
